A study of Mus musculus with 16 samples.

Results

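Toll-like receptors are the membrane sensors with which innate immune cells detect microbial products and some products of damaged cells, and 10 of their genes were measured in whole tumors of mice treated with gemcitabine (GEM), an agonist anti-CD40 antibody (Ab), or both. The genes were set by name as Tlr1, Tlr2, Tlr4, Tlr5 and Tlr6, whose proteins act at the cell surface, and Tlr3, Tlr7, Tlr8, Tlr9 and Tlr13, whose proteins sense nucleic acids in endosomes. A probe set counted for a gene where the array annotation gave it to that gene alone, which left 16 of the 45037 probe sets tested, and the brightest of them over the 16 arrays represented its gene. All 10 genes were found among 18193 named genes. Tlr3 had 2 such probe sets, Tlr7 had 3 and Tlr4 had 4, and each other receptor had 1.

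All tumors grew from PDA30364, a single cell line established from a pancreatic tumor of an Elas-tTA/TetO-Cre mouse, so that they stand for 1 line. For each tumor, 500000 cells were placed under the flank skin of C57BL/6-Ly5.1 hosts aged 6 to 12 weeks. The control group received vehicle with control IgG, the anti-CD40 Ab group vehicle with the antibody, the GEM group 120 mg/kg gemcitabine with control IgG, and the GEM/anti-CD40 Ab group both agents. Chemotherapy or vehicle was injected 3 times (treatment days 1, 5, 12) and antibody or IgG 4 times (days 3, 4, 6, 14), and tumors were taken on day 22 or 23 after inoculation, 4 per group. Pieces of tumor gave the RNA. The question of the comparisons is how chemotherapy and CD40 agonism, alone and together, change the sensors of innate immunity in the tumor.

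Toll-like receptors bind their ligands through leucine-rich repeats and signal through a cytoplasmic TIR domain. Most of them recruit the adaptor MyD88, which leads through IRAK kinases and the ubiquitin ligase TRAF6 to NF-kB, whereas Tlr3 uses the adaptor TRIF and Tlr4 uses both. The endosomal receptors also lead to interferon regulatory factors and thereby to type I interferon. Macrophages, dendritic cells and neutrophils carry a large part of the family, and epithelial cells and fibroblasts carry some members. CD40, the target of the antibody, is a receptor of the tumor necrosis factor family on antigen-presenting cells.

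Promoter windows are shown for Tlr1, Tlr2 and Tlr13, whose levels moved together over the tumors, and for Tlr3, whose correlation with each of them was lower (r between 0.39 and 0.55). They are the 250 bases before an annotated start, not always the outermost of the gene, from the RefSeq table of build GRCm38.p6. It held 10 windows for 8 of the 10 genes and none for Tlr4 and Tlr7. The array values themselves carry no coordinates. The windows lie at chr5:64933559-64933808 on the minus strand for Tlr1, at chr3:83841609-83841858 on the minus strand for Tlr2, at chrX:106143025-106143274 on the plus strand for Tlr13 and at chr8:45410381-45410630 on the minus strand for Tlr3. By the RefSeq gene positions, the Tlr3 window lies within its gene (chr8:45395665-45411075). Those of Tlr1 and Tlr2 overlap the 5′ ends of their genes, at 64933600 and 83841824. The Tlr13 window ends directly before its gene, which starts at 106143275. Motif matches can thus lie within a gene. Each is written 5′ to 3′ on the strand of its gene, with matches to 5 short motifs in capitals.
Tlr1: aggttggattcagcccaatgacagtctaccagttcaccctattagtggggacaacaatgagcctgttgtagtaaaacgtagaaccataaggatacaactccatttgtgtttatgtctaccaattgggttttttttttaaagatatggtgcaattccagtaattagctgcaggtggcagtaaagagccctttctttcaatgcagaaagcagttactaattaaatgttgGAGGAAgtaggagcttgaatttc
Tlr2: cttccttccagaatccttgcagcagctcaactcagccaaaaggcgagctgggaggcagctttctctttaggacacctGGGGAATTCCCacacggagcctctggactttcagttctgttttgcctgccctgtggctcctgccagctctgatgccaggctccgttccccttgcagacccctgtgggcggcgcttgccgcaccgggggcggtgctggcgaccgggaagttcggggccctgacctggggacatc
Tlr13: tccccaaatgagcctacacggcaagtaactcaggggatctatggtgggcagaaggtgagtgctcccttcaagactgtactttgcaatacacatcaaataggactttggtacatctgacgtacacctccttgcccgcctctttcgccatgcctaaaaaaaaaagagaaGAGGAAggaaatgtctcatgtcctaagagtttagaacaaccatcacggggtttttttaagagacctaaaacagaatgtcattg
Tlr3: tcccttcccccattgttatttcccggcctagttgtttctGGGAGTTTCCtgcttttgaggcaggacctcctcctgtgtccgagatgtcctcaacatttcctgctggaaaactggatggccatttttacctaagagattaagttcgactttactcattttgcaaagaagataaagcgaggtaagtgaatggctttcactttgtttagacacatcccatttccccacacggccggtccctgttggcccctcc

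The motifs were searched on both strands. The core GAGGAA bound by the myeloid factor PU.1 lay in the windows shown of Tlr1 and Tlr13, and also in those of Tlr8 and Tlr9, and 23.3% of the 32851 windows in the table held it. An NF-kB site, searched by its usual degenerate form, lay in the windows of Tlr2 and Tlr3 and in 7.3% of all windows. In Tlr2 the capitals join overlapping matches of that motif. The interferon regulatory element GAAANNGAA lay in the window of Tlr8 and at the downstream start of Tlr6, and in 7.1% of all windows. Both windows of Tlr6 lie within its gene. The STAT element TTCNNNGAA lay in the window of Tlr8 and at the downstream start of Tlr1, and in 7.0% of all windows. The AP-1 site TGANTCA lay in the window of Tlr9 alone, and in 6.7% of all windows. In the same table Tlr1 and Tlr6 are neighbors on chromosome 5, with 19491 bases between the genes, and Tlr7 and Tlr8 are neighbors on chromosome X, with 39050 bases between them.

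The deposited values are log2 intensities from Affymetrix arrays, and the medians of the 16 arrays lay between 5.60 and 5.66. All 6 genes of a tumor epithelium list (Epcam, Krt7, Krt8, Krt18, Krt19, Cldn4) were above the median of all probe sets, with a list mean per tumor between 11.6 and 12.4. The mean of 7 skin keratinocyte genes was 9.07 in control tumor 2 and 7.14 in anti-CD40 Ab tumor 2, and the mean of 7 skeletal muscle genes was 12.5 in GEM/anti-CD40 Ab tumor 4. Of these 3, only GEM/anti-CD40 Ab tumor 4 enters GEM/anti-CD40 Ab against GEM. Without it the log2 change there was 1.29 for Tlr2, 0.96 for Tlr13, 0.86 for Tlr1, 0.69 for Tlr7 and 0.32 for Tlr6. The values over all tumors are given further on. Without these tumors, GEM/anti-CD40 Ab against control gave 0.13 for Tlr8 and 0.43 for Tlr7, beside 0.19 and 0.28 over all tumors. Likewise, anti-CD40 Ab against control gave 0.02 for Tlr3 and 0.32 for Tlr13, beside 0.18 and 0.22. The muscle list also varied among other tumors, from 4.44 to 8.18 in GEM and from 5.03 to 7.69 in control tumors. Tumor 4 was the highest in each of these 2 groups. GEM tumor 4 and control tumor 4 stayed in the values without the 3 tumors. GEM tumors 3 and 4 carry the same animal number in their labels although the design gives 4 mice per group, and their arrays differed as much as those of other GEM tumors. In RNA from a whole tumor, a change in the number of cells of a type and a change in RNA per cell cannot be told apart.

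No receptor passed an adjusted p of 0.05 in any comparison (limma, Benjamini-Hochberg over 45037 probe sets). The receptors with the widest spread between tumors were Tlr1, Tlr2 and Tlr13, which differed by 2.20, 2.13 and 2.14 log2 units between their highest and lowest tumor. For all 3 the group means ran in the order GEM, control, anti-CD40 Ab and GEM/anti-CD40 Ab. Tlr5 and Tlr9 had the narrowest spread, with 0.45 and 0.39. The 16-tumor means of Tlr5 (4.93), Tlr6 (5.57), Tlr7 (5.06), Tlr8 (5.29) and Tlr9 (5.60) lay below the median of all probe sets (5.62), and those of Tlr1, Tlr2, Tlr3, Tlr4 and Tlr13 lay above it. GEM/anti-CD40 Ab tumor 1 had the highest value of all 16 tumors for 6 of the 10 receptors, namely Tlr1, Tlr2, Tlr3, Tlr6, Tlr7 and Tlr13.

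**Figure D1:**
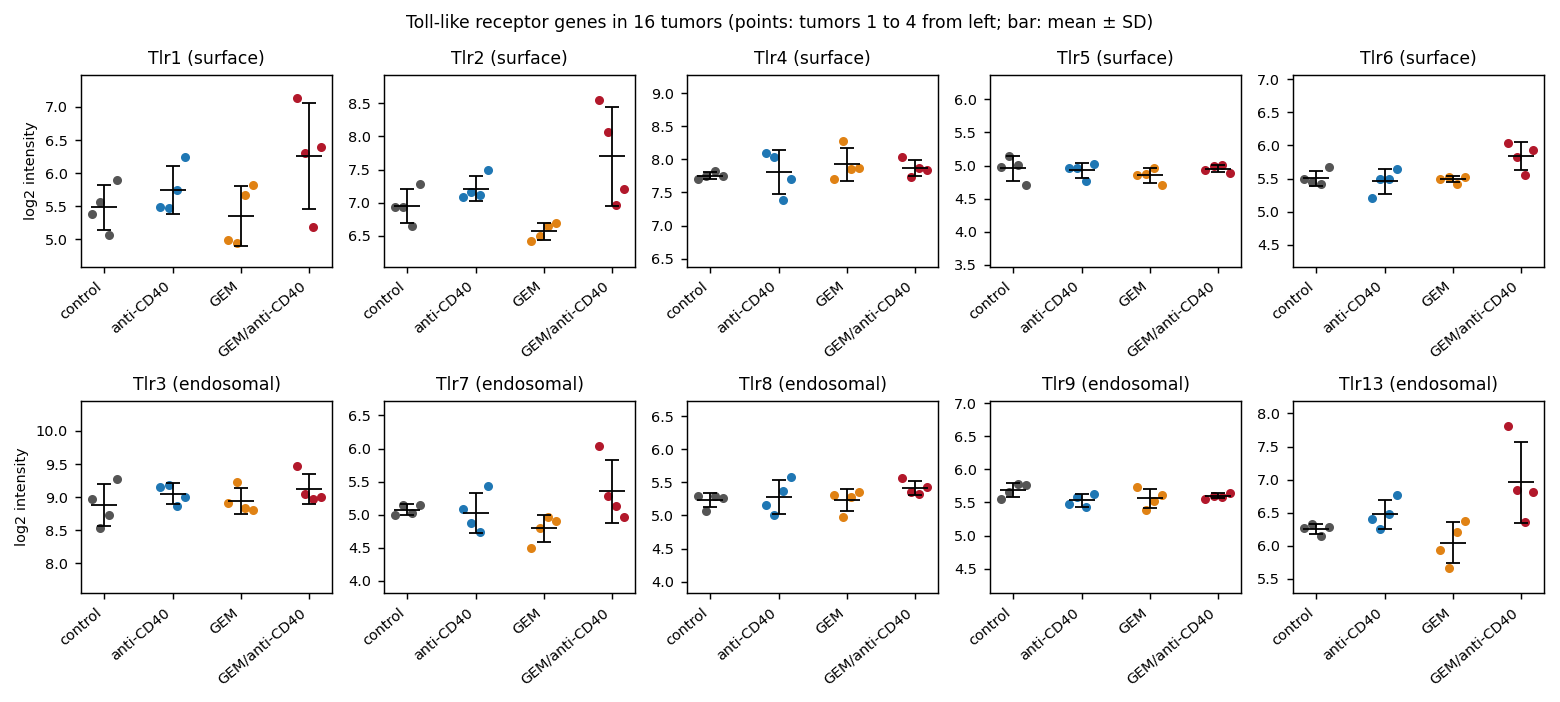
Log2 intensity of the 10 receptors (y axis, the same span in every panel) in the 16 tumors, by treatment group on the x axis. Points are tumors 1 to 4 from left to right and bars are mean ± SD, and Tlr1, Tlr2 and Tlr13 show the widest spread, with GEM/anti-CD40 Ab tumor 1 at 7.14, 8.55 and 7.81.

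Tlr2, which pairs with Tlr1 or Tlr6 to sense bacterial lipoproteins, was measured at 6.94, 6.94, 6.65 and 7.28 log2 units in control tumors 1 to 4 and at 6.42, 6.50, 6.65 and 6.70 in GEM tumors. It was measured at 7.08, 7.16, 7.12 and 7.49 in anti-CD40 Ab tumors and at 8.55, 8.07, 6.96 and 7.21 in GEM/anti-CD40 Ab tumors. All 4 GEM/anti-CD40 Ab tumors lay above all 4 GEM tumors, whereas they overlapped with the control and the anti-CD40 Ab tumors. GEM/anti-CD40 Ab tumors exceeded GEM tumors by 1.13 ± 0.31 log2 units (limma SE), or 2.19-fold, with adjusted p = 0.26 and exact permutation p = 0.0286, the smallest that 4 against 4 tumors allow. The change against control was 0.75 ± 0.33 (adjusted p = 0.52), and 0.46 without GEM/anti-CD40 Ab tumor 1. GEM tumors were lower than control tumors by 0.39 on the log2 scale (log2 change -0.39 ± 0.13, adjusted p = 0.79), and 1 control tumor fell within the range of the GEM tumors.

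Tlr1, the partner of Tlr2 for triacylated lipoproteins, was measured at 5.39, 5.57, 5.07 and 5.90 in control tumors and at 4.99, 4.94, 5.67 and 5.82 in GEM tumors. It was measured at 5.49, 5.48, 5.75 and 6.25 in anti-CD40 Ab tumors and at 7.14, 6.31, 5.19 and 6.39 in GEM/anti-CD40 Ab tumors. GEM/anti-CD40 Ab tumors 1, 2 and 4 lay above every tumor of the other groups, while tumor 3 lay among the control and GEM tumors. The log2 change of GEM/anti-CD40 Ab was 0.90 ± 0.38 against GEM (adjusted p = 0.41) and 0.78 ± 0.36 against control (adjusted p = 0.54). Without GEM/anti-CD40 Ab tumor 1 these changes were 0.61 and 0.48, and without tumor 3 they were 1.26 and 1.13.

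Tlr6, the partner of Tlr2 for diacylated lipoproteins, was measured at 5.49, 5.44, 5.42 and 5.67 in control tumors and at 5.49, 5.52, 5.42 and 5.53 in GEM tumors. It was measured at 5.20, 5.50, 5.49 and 5.64 in anti-CD40 Ab tumors and at 6.04, 5.83, 5.56 and 5.93 in GEM/anti-CD40 Ab tumors. The combination group lay above all GEM tumors, and its tumor 3 overlapped with the control and the anti-CD40 Ab tumors. Its log2 change was smaller than those of Tlr1 and Tlr2 but similar against each other group, with 0.35 ± 0.10 against GEM (adjusted p = 0.26), 0.34 ± 0.11 against control (adjusted p = 0.46) and 0.38 ± 0.12 against anti-CD40 Ab (adjusted p = 0.94). Tlr6 was the single receptor with an unadjusted p under 0.05 against anti-CD40 Ab alone.

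Tlr4, the receptor for lipopolysaccharide, ranged from 7.70 to 7.82 in control tumors, from 7.38 to 8.09 in anti-CD40 Ab tumors, from 7.70 to 8.28 in GEM tumors and from 7.73 to 8.03 in GEM/anti-CD40 Ab tumors. The groups overlapped throughout. The change with the smallest p was 0.11 ± 0.07 in GEM/anti-CD40 Ab against control (adjusted p = 0.65), and 0.06 without GEM/anti-CD40 Ab tumor 1. The 3 brighter of its 4 probe sets had 16-tumor means of 7.84, 7.61 and 6.20, and their changes in the 5 comparisons all lay between -0.06 and 0.18. Tlr5, the flagellin receptor, ranged from 4.70 to 5.15 over all 16 tumors, and its difference with the smallest p was 0.10 ± 0.07 in GEM/anti-CD40 Ab against GEM (adjusted p = 0.61), and 0.05 without GEM tumor 4.

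Tlr13, a mouse receptor for bacterial ribosomal RNA, was measured at 6.27, 6.33, 6.15 and 6.29 in control tumors and at 5.93, 5.67, 6.21 and 6.37 in GEM tumors. It was measured at 6.41, 6.25, 6.48 and 6.77 in anti-CD40 Ab tumors and at 7.81, 6.84, 6.36 and 6.82 in GEM/anti-CD40 Ab tumors. Every GEM/anti-CD40 Ab tumor exceeded every control tumor, by a narrow margin at the closest, and the lowest of them lay just below the highest GEM tumor. The log2 change was 0.70 ± 0.26 against control (1.62-fold, adjusted p = 0.48, exact permutation p = 0.0286) and 0.91 ± 0.28 against GEM (1.88-fold, adjusted p = 0.29). Without GEM/anti-CD40 Ab tumor 1 these changes were 0.41 and 0.63.

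Tlr7, a receptor for single-stranded RNA, was measured at 5.00, 5.15, 5.02 and 5.14 in control tumors and at 4.50, 4.80, 4.96 and 4.91 in GEM tumors. It was measured at 5.09, 4.87, 4.74 and 5.43 in anti-CD40 Ab tumors and at 6.04, 5.28, 5.13 and 4.97 in GEM/anti-CD40 Ab tumors. The GEM tumors lay below all control tumors and below all GEM/anti-CD40 Ab tumors, the latter by a narrow margin. The log2 change was -0.29 ± 0.10 in GEM against control (adjusted p = 0.82) and 0.56 ± 0.22 in GEM/anti-CD40 Ab against GEM (adjusted p = 0.37). The other 2 probe sets of Tlr7, with dimmer means of 3.61 and 3.30, gave -0.06 and 0.16 in the first of these comparisons and 0.07 and -0.02 in the other, so the differences rest on 1 probe set. The mean of all 3 gave -0.06 and 0.21. Without GEM/anti-CD40 Ab tumor 1 the change against GEM was 0.33, and without GEM tumor 1 the change in GEM against control was -0.19.

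Tlr8, the neighbor of Tlr7 and also a sensor of RNA breakdown products, ranged from 5.07 to 5.30 in control, from 4.98 to 5.35 in GEM, from 5.00 to 5.58 in anti-CD40 Ab and from 5.33 to 5.56 in GEM/anti-CD40 Ab tumors. The combination tumors did not overlap with the control tumors, with a log2 change of 0.19 ± 0.08 (adjusted p = 0.51). Against GEM the change was also 0.19 ± 0.09, with overlapping groups (adjusted p = 0.49), and 0.10 without GEM tumor 2. Tlr9, the receptor for unmethylated CpG DNA, ranged from 5.39 to 5.78 over all tumors, with a change of -0.16 ± 0.08 in anti-CD40 Ab against control (adjusted p = 0.81). Tlr3, the receptor for double-stranded RNA, ranged from 8.54 to 9.27 in control tumors and from 8.98 to 9.47 in GEM/anti-CD40 Ab tumors, with a change of 0.25 ± 0.17 (adjusted p = 0.66), which was 0.13 without control tumor 2 or without GEM/anti-CD40 Ab tumor 1 and 0.38 without control tumor 4. Its dimmer probe set gave 0.13 in that comparison.

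In GEM/anti-CD40 Ab against GEM, 5 of the 10 receptors (Tlr1, Tlr2, Tlr6, Tlr7 and Tlr13) had an unadjusted limma p under 0.05, all higher in the combination, where 11.6% of all probe sets did in either direction. Tlr2, Tlr6 and Tlr7 had groups that did not overlap, against 6.16% of all probe sets, and 0% of probe sets passed the adjusted threshold in that comparison. In GEM/anti-CD40 Ab against control, Tlr2, Tlr6, Tlr8 and Tlr13 had an unadjusted p under 0.05 (background 9.58%), and Tlr8 and Tlr13 had groups that did not overlap (background 5.1%). There 8 probe sets or 0.0178% passed the adjusted threshold, none of them of a receptor. These 2 comparisons share the GEM/anti-CD40 Ab tumors.

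The agents alone gave smaller counts. In GEM against control, Tlr2 and Tlr7 had an unadjusted p under 0.05, both lower in GEM (background 5.72%), and Tlr7 alone had groups that did not overlap (background 3.21%). In anti-CD40 Ab against control 0 receptors had an unadjusted p under 0.05 (background 6.08%) and 0 had groups that did not overlap (background 3.03%), and the smallest p values were those of Tlr9, Tlr13 (log2 change 0.22 ± 0.11) and Tlr2 (log2 change 0.26 ± 0.14), all with adjusted p values of 0.81 or 0.82. Without anti-CD40 Ab tumor 4 the changes of Tlr13 and Tlr2 were 0.12 and 0.17, and without control tumor 3 that of Tlr2 was 0.16. In GEM/anti-CD40 Ab against anti-CD40 Ab only Tlr6 had an unadjusted p under 0.05 (background 4.6%), and 0 receptors had groups that did not overlap (background 2.63%). Of all probe sets, 0% passed the adjusted threshold in each of these 3 comparisons.

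**Figure D2:**
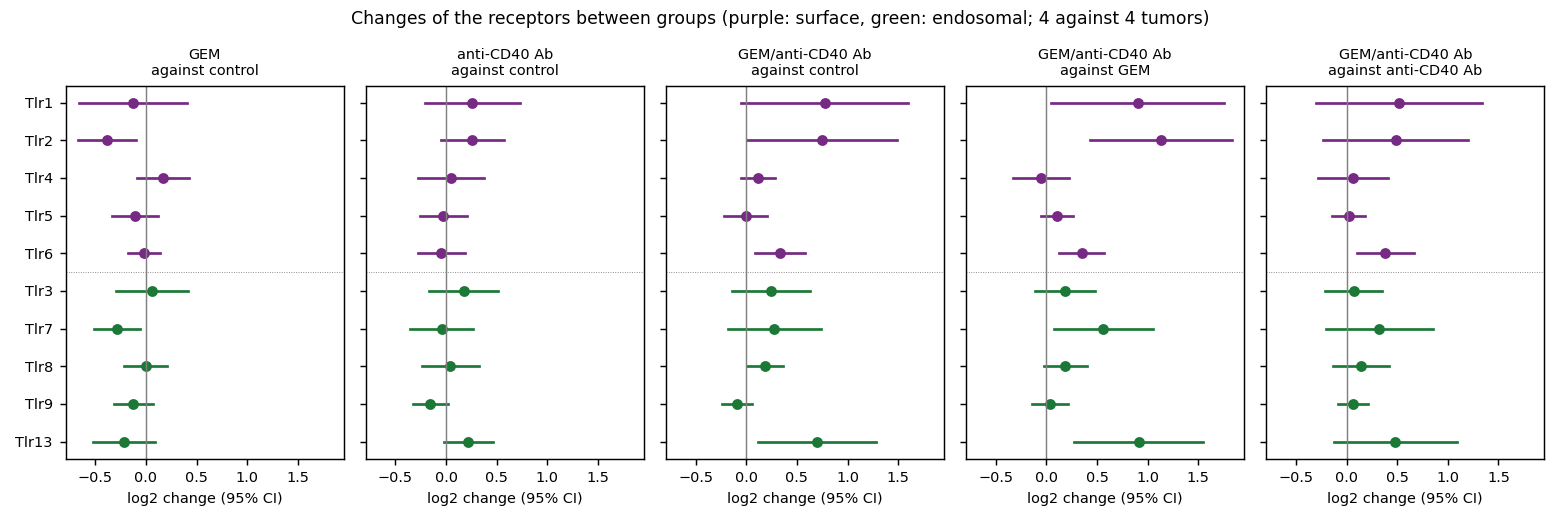
Log2 change (x axis) of each receptor (y axis) in the 5 comparisons between groups, with 95% confidence intervals from limma. Surface receptors are purple and endosomal receptors green; in GEM/anti-CD40 Ab against GEM the intervals of Tlr1, Tlr2, Tlr6, Tlr7 and Tlr13 lie above 0.

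The 2 agents were also compared over all 16 tumors. The main effect of anti-CD40 Ab, averaged over tumors with and without GEM, was 0.70 ± 0.18 for Tlr2 (adjusted p = 0.11), 0.57 ± 0.16 for Tlr13 (adjusted p = 0.15) and 0.58 ± 0.24 for Tlr1 (adjusted p = 0.32). These were the 3 of 10 receptors with an unadjusted p under 0.05, where 12.4% of all probe sets had one, and 0.389% of probe sets passed the adjusted threshold. Without GEM/anti-CD40 Ab tumor 3 the adjusted p was 0.023 for Tlr2 and 0.037 for Tlr13, with changes of 0.82 and 0.66, so that 1 tumor decides whether these receptors pass. The main effect of GEM had an unadjusted p under 0.05 for Tlr6 alone, with 0.18 ± 0.07 (adjusted p = 0.90), where 5.5% of all probe sets had one and 0.00222% passed the adjusted threshold. That is an average of unlike changes of Tlr6, with -0.015 ± 0.07 in GEM against control and 0.38 ± 0.12 in GEM/anti-CD40 Ab against anti-CD40 Ab.

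The interaction, which asks whether the change with anti-CD40 Ab differs between tumors with and without GEM, was above 0 for 9 of the 10 receptors, where 51.9% of named genes were above 0. It was 0.87 ± 0.37 for Tlr2, 0.40 ± 0.15 for Tlr6, 0.61 ± 0.27 for Tlr7 and 0.70 ± 0.33 for Tlr13, the 4 receptors with an unadjusted p under 0.05, each with an adjusted p of 0.89. Without GEM/anti-CD40 Ab tumor 1 the interaction was 0.41 for Tlr13 and 0.38 for Tlr7, and with the mean of the 3 probe sets of Tlr7 it was 0.20. An unadjusted p under 0.05 was found for 5.24% of all probe sets, and 0% passed the adjusted threshold.

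Surface and endosomal receptors had overlapping changes. In GEM/anti-CD40 Ab against GEM, 4 of 5 surface and 5 of 5 endosomal receptors had a change above 0, with median changes of 0.35 and 0.19, where the median of all named genes was -0.02. Against control the medians were 0.34 for surface and 0.25 for endosomal receptors, with 4 of 5 above 0 in each, beside -0.02 for all named genes. In GEM against control they were -0.11 and -0.13, with 4 of 5 below 0 in each. The mean of the 5 surface receptors minus that of the 5 endosomal receptors, taken on each array, was -0.10 ± 0.09 (SD) in control, -0.05 ± 0.06 in anti-CD40 Ab, -0.08 ± 0.08 in GEM and 0.03 ± 0.14 in GEM/anti-CD40 Ab tumors, and the groups overlapped. Each class held receptors that varied widely (Tlr1 and Tlr2 at the surface, Tlr13 in endosomes) and receptors with dim probe sets and a narrow spread (Tlr5 at the surface, Tlr9 in endosomes).

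**Figure D3:**
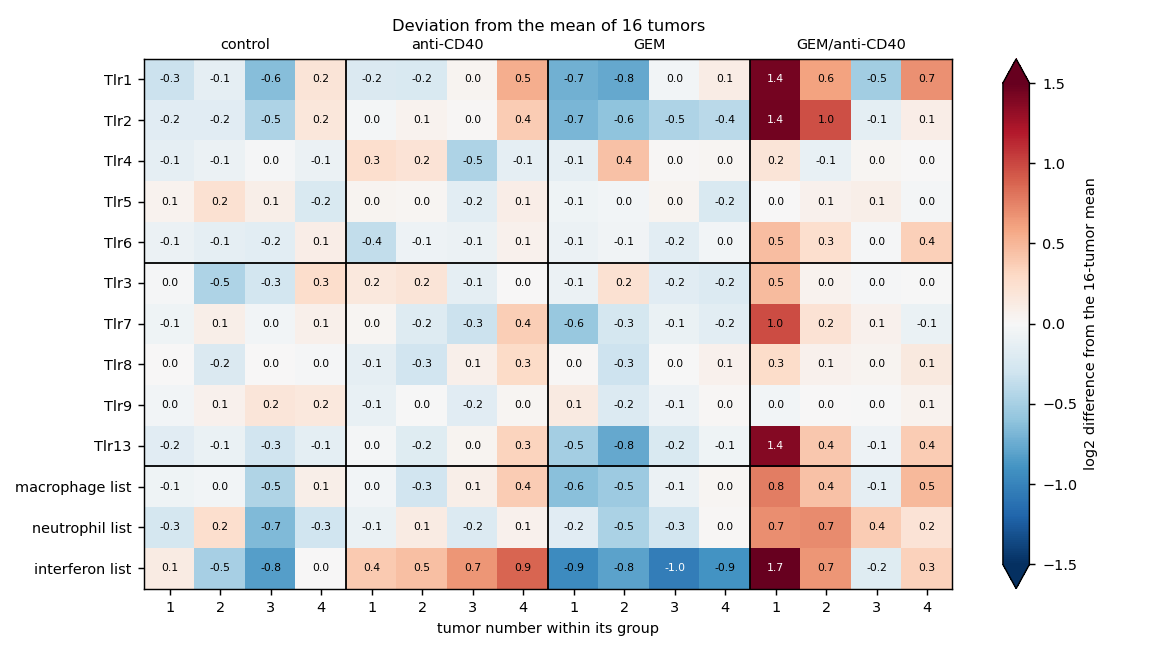
Difference of each tumor (x axis, 4 groups of 4) from the mean of the 16 tumors, in log2 units (color scale), for surface receptors (top block), endosomal receptors (middle block) and 3 gene list means (bottom block). GEM/anti-CD40 Ab tumor 1 is high for Tlr1, Tlr2, Tlr7 and Tlr13 and for the macrophage and interferon lists, and GEM tumors 1 and 2 are low for the same rows.

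The receptors were set beside 10 macrophage genes (Adgre1, Csf1r, Cd68, Cd163, Mrc1, Msr1, C1qa, C1qb, C1qc, Mertk), of which all but Cd163 were above the median of all probe sets. The mean of the list was 8.45 ± 0.23 (SD) in control, 8.60 ± 0.28 in anti-CD40 Ab, 8.26 ± 0.33 in GEM and 8.96 ± 0.38 in GEM/anti-CD40 Ab tumors, which is the order of Tlr1, Tlr2 and Tlr13. Of its 10 genes, 7 had an unadjusted p under 0.05 in GEM/anti-CD40 Ab against GEM, all higher (list median 0.71), and 0 passed the adjusted threshold. Of all probe sets, 11.6% had such an unadjusted p there in either direction. Other cell type lists also held genes with higher means in that comparison, with 4 of 6 T cell genes (median 0.76), 4 of 5 endothelial genes (median 0.52) and 5 of 8 neutrophil genes (median 0.63) higher at an unadjusted p under 0.05. The endothelial list mean was 6.90, 6.58, 6.39 and 7.49 in GEM/anti-CD40 Ab tumors 1 to 4, highest in the tumor with skeletal muscle genes. It was 6.35 ± 0.22 (SD) in GEM tumors. The dendritic and plasmacytoid list had a median of -0.075, with 2 of 9 genes higher and 1 lower, and the fibroblast list one of -0.02, with 0 of 6 higher and 1 lower. In the main effect of anti-CD40 Ab 1 of the 10 macrophage genes passed (background 0.389%), the scavenger receptor gene Msr1, which rose by 1.10 ± 0.16 (adjusted p = 0.018). In the same test 1 of 9 dendritic and plasmacytoid genes and 3 of 8 type I interferon-stimulated genes also passed, all higher. Ptprc, which encodes the leukocyte antigen CD45, was highest in GEM/anti-CD40 Ab tumor 1, at 11.01, where the macrophage list was also at its highest (9.34), and averaged 8.87 in GEM tumors. The group means of Ptprc and of the interferon-stimulated genes given below ran in the same order as those of the macrophage list. The part of macrophage, other leukocyte or endothelial content in the receptor differences was not tested.

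Over the 16 tumors the level of Tlr1 followed the macrophage list with Pearson r = 0.96 and Spearman rho = 0.96 (permutation p = 1e-05 for each, the smallest that 100000 resamples can give, adjusted p = 0.0001 and 0.00015 over 30 relations). It was 0.95 without the 2 tumors farthest from the list's median and 0.95 after centering each group on its mean (adjusted p = 0.0003). Tlr13 followed the list with r = 0.92, rho = 0.92 and a within-group r of 0.84 (adjusted p = 0.0121), and Tlr2 with r = 0.86, rho = 0.85 and a within-group r of 0.72 (adjusted p = 0.0121). These 3 relations passed the adjusted test among tumors of the same treatment. For Tlr6, Tlr7 and Tlr8 r was 0.73, 0.76 and 0.68 and rho 0.64, 0.60 and 0.66, and the within-group values of 0.62, 0.64 and 0.59 did not pass the adjusted threshold (permutation adjusted p = 0.10, 0.11 and 0.096). Tlr3, Tlr4, Tlr5 and Tlr9 gave r = 0.32, -0.17, 0.0021 and -0.04, and rho = 0.31, -0.18, -0.07 and 0.02.

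**Figure D4:**
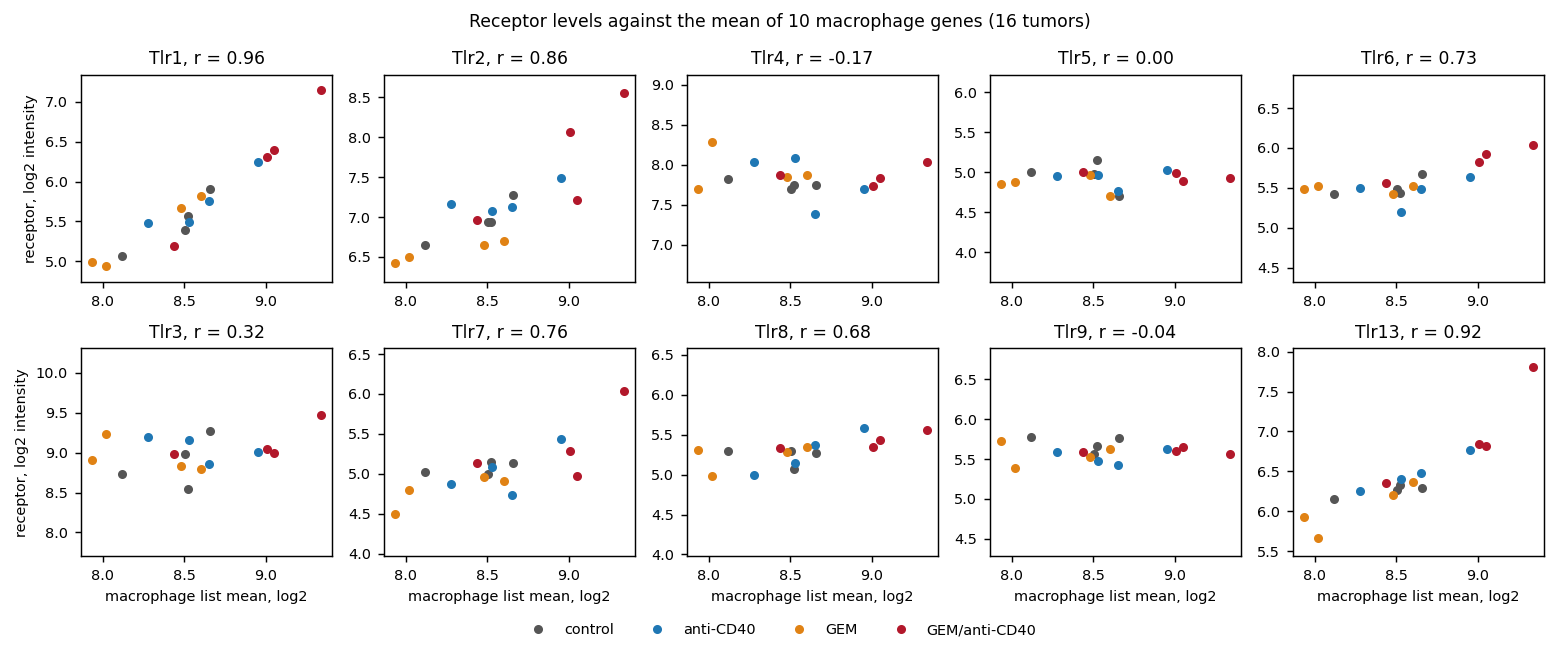
Log2 intensity of each receptor (y axis) against the mean log2 intensity of 10 macrophage genes (x axis) in 16 tumors, colored by group, with Pearson r above each panel. Tlr1 lies higher where the list is higher (r = 0.96), whereas Tlr4, Tlr5 and Tlr9 give r between -0.17 and 0.0021.

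Of 8 measured type I interferon-stimulated genes (Ifit1, Ifit2, Ifit3, Mx1, Oas2, Oasl2, Rsad2, Usp18), the mean was 7.41 ± 0.44 (SD) in control, 8.30 ± 0.22 in anti-CD40 Ab, 6.79 ± 0.10 in GEM and 8.34 ± 0.78 in GEM/anti-CD40 Ab tumors. In GEM/anti-CD40 Ab against GEM all 8 were higher at an unadjusted p under 0.05 (list median 1.68, background 11.6%), and 0 passed the adjusted threshold. Tlr2 followed this list with r = 0.89, rho = 0.89 and a within-group r of 0.87 (permutation adjusted p = 0.0128), and Tlr13 with r = 0.82, rho = 0.76 and a within-group r of 0.77 (permutation adjusted p = 0.0574). Tlr1 gave r = 0.75 and rho = 0.59. With a list of 8 measured neutrophil genes, Tlr2 gave r = 0.76 and rho = 0.60 and Tlr13 r = 0.74 and rho = 0.71, of which the r values became 0.44 and 0.56 without the 2 tumors farthest from the list's median. In all, 17 of the 30 relations passed an adjusted p of 0.05 by Pearson's r, 8 by both measures and 4 within groups, and those 4 were Tlr1, Tlr2 and Tlr13 with the macrophage list and Tlr2 with the interferon list.

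Among the receptors themselves, Tlr1 and Tlr13 were the pair with the highest correlation (r = 0.93, rho = 0.85, within groups 0.90), followed by Tlr2 and Tlr13 (r = 0.91, rho = 0.83, within groups 0.81) and Tlr1 and Tlr2 (r = 0.87, rho = 0.81, within groups 0.82), with an adjusted permutation p of 0.012 within groups for each of these 3. The neighboring genes Tlr1 and Tlr6 gave r = 0.79, while the neighboring genes Tlr7 and Tlr8 gave r = 0.50. Of the 45 pairs, 11 passed by Pearson's r and 6 within groups. The genes with the pattern most like each receptor over the 16 tumors, by Pearson's r among 11642 named genes above the median of all probe sets, were Ms4a6c (0.98), Nrros (0.97) and Alox5ap (0.97) for Tlr1, Slc15a3 (0.96), Fyb (0.96) and Trpv2 (0.96) for Tlr2, and AB124611 (0.97), Klhl6 (0.97) and Pirb (0.96) for Tlr13. For Tlr3 they were Enpp4 (0.88), Ankfy1 (0.86) and Dtx3l (0.82), and for Tlr4 Rnf167 (0.86), Ppm1k (0.80) and Sirt3 (0.80). They are the highest of many values and carry no test.

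Further genes of the pathway were followed in lists of other receptors of the family (Tlr11, Tlr12, Cd180), co-receptors, folding and trafficking factors, proteases, adaptors, kinases, transcription factors, inhibitors, endogenous ligands and targets, 78 genes in all, of which 70 were measured. In GEM/anti-CD40 Ab against GEM, 26 of the 70 had an unadjusted p under 0.05 with a higher mean and 1 (Irf5) with a lower mean, and against control the counts were 23 and 1 (Irak1), where 11.6% and 9.58% of all probe sets had such a p in either direction. In anti-CD40 Ab against control 7 were higher and 0 lower (background 6.08%), in GEM against control 3 higher and 4 lower (background 5.72%), and in GEM/anti-CD40 Ab against anti-CD40 Ab 11 higher and 0 lower (background 4.6%). With adjusted p values, 0 passed in these 5 comparisons. In the main effect of anti-CD40 Ab over 16 tumors 2 genes passed (background 0.389%), both higher with the antibody, the transcription factor Irf7 and the chemokine Cxcl10. Each listed gene, here and in the cell type lists, stands by its brightest probe set, whereas the backgrounds include dim probe sets. Without the dim ones, 3468 of 22523 probe sets had an unadjusted p under 0.05 in GEM/anti-CD40 Ab against GEM, and 2614 against control. In the main effect of anti-CD40 Ab 373 of 22523 passed the adjusted threshold.

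Of the lists upstream of signaling, the co-receptors and ligand transfer proteins gave 0 of 5 with an unadjusted p under 0.05 in GEM/anti-CD40 Ab against GEM and against control (background 11.6% and 9.58%). Cd36, a co-receptor for lipoproteins, had a change of 0.61 ± 0.28 against control (adjusted p = 0.53), Cd14, which hands lipopolysaccharide and lipoproteins to Tlr4 and Tlr2, had 0.21 ± 0.09 (adjusted p = 0.53) and Lbp 0.29 ± 0.17 (adjusted p = 0.60). Cd36 was at 7.32, 7.44, 6.81 and 8.38 in GEM/anti-CD40 Ab tumors 1 to 4, highest in the tumor with skeletal muscle genes. Control tumors ranged from 6.77 to 6.98 for Cd36. Unc93b1, the chaperone that carries endosomal receptors from the endoplasmic reticulum, was the 1 of 7 folding and trafficking genes with an unadjusted p under 0.05 in GEM/anti-CD40 Ab against GEM (0.56 ± 0.21, adjusted p = 0.36). Hsp90b1, the chaperone gp96 that most receptors of both classes need, gave -0.0025 ± 0.057 in that comparison. Of 5 proteases that trim endosomal receptors, Ctss (0.89 ± 0.23, adjusted p = 0.24) and Lgmn (0.33 ± 0.09, adjusted p = 0.24) were higher in GEM/anti-CD40 Ab than in GEM tumors at an unadjusted p under 0.05.

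Among adaptors, 2 of 5 measured genes had an unadjusted p under 0.05 in GEM/anti-CD40 Ab against control (background 9.58%), Tirap (0.26 ± 0.08) and Myd88 (0.32 ± 0.11), with adjusted p values of 0.45 and 0.47. Ticam1, which encodes the adaptor TRIF of Tlr3, gave 0.07 ± 0.09. Of 12 measured kinases and ubiquitin ligases, Btk (0.54 ± 0.19) and Tbk1 (0.23 ± 0.09) were higher in GEM/anti-CD40 Ab than in GEM tumors at an unadjusted p under 0.05 (background 11.6%), and Irak1 was lower in GEM/anti-CD40 Ab than in control tumors (-0.25 ± 0.09). Adjusted p values of these kinases were 0.34, 0.35 and 0.48.

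**Figure D5:**
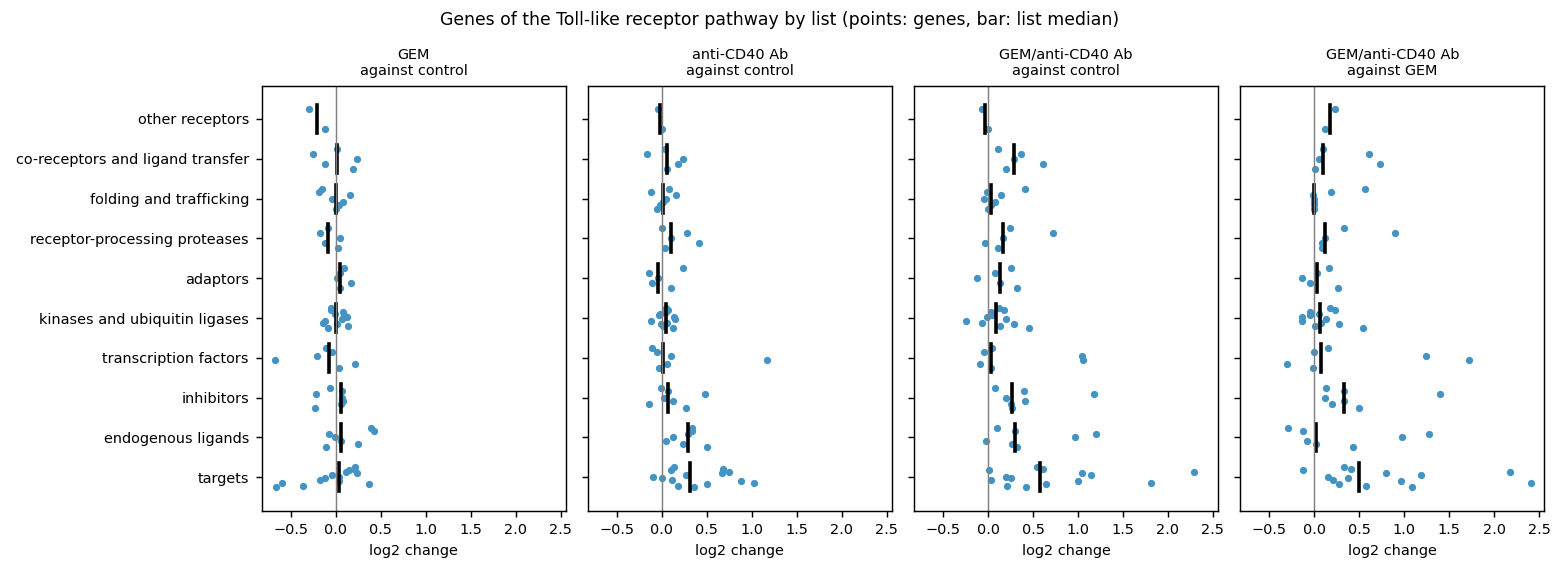
Log2 change (x axis) of the measured genes of 10 pathway lists (y axis) in 4 comparisons; points are genes and black bars are list medians. Of the 14 targets, 14 lie to the right of 0 in GEM/anti-CD40 Ab against control (median 0.58) and 13 in GEM/anti-CD40 Ab against GEM (median 0.50). Some of the targets, such as Ifnb1, Il10, Il12a and Il12b, have dim probe sets.

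Irf7, the transcription factor through which endosomal receptors induce interferon alpha, was at 7.58, 7.01, 6.85 and 7.53 in control tumors and at 8.39, 8.36, 8.30 and 8.58 in anti-CD40 Ab tumors. It was at 6.68, 6.58, 6.57 and 6.46 in GEM tumors and at 9.62, 8.20, 7.43 and 7.92 in GEM/anti-CD40 Ab tumors. All tumors with the antibody thus lay above all tumors without it that had the same chemotherapy. In the main effect of anti-CD40 Ab, Irf7 rose by 1.44 ± 0.23 (adjusted p = 0.0249). Cxcl10, an interferon-induced chemokine, rose by 1.72 ± 0.35 in the same test (adjusted p = 0.0484). The means of Irf7 were 7.24 in control, 8.41 in anti-CD40 Ab, 6.57 in GEM and 8.29 in GEM/anti-CD40 Ab tumors. Those of the interferon-stimulated list were 7.41, 8.30, 6.79 and 8.34. The part of Toll-like receptor signaling in the changes of Irf7 and Cxcl10 was not tested. Irf8, a factor of myeloid development, had a change of 1.25 ± 0.37 in GEM/anti-CD40 Ab against GEM (adjusted p = 0.28), and Irf5 one of -0.30 ± 0.08 (adjusted p = 0.25).

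The inhibitors of the pathway were higher in GEM/anti-CD40 Ab than in GEM tumors at an unadjusted p under 0.05 for 5 of 7 measured genes (background 11.6%), with a list median of 0.33 beside -0.02 for all named genes. They included Socs1 (1.40 ± 0.35), Tnfaip3, which encodes the ubiquitin-editing enzyme A20 (0.34 ± 0.09), and Nfkbia, the NF-kB inhibitor (0.33 ± 0.10), with adjusted p values of 0.24, 0.24 and 0.28. Of 7 measured endogenous ligands, the Tlr4 ligands S100a9 (1.27 ± 0.28) and S100a8 (0.98 ± 0.27) had an unadjusted p under 0.05 in that comparison, with adjusted p values of 0.21 and 0.26. Both are abundant neutrophil products and stand in the neutrophil list too, of whose 8 measured genes 5 had an unadjusted p under 0.05 there, all higher.

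The 14 targets were measured in full, and 10 of them were higher in GEM/anti-CD40 Ab than in GEM tumors at an unadjusted p under 0.05 (background 11.6%), 8 were higher than in control (background 9.58%), and 0 were lower in either. Among them, Ifnb1, Il10, Il12a and Il12b were dim, with every group mean below the median of all probe sets (5.62). Ifnb1 averaged 4.17 in control and 4.20 in GEM/anti-CD40 Ab tumors. Il6 was at 8.15, 5.20, 4.81 and 5.79 in GEM/anti-CD40 Ab tumors 1 to 4 and averaged 3.70 in control. Cxcl10 differed by 2.41 ± 0.52 against GEM (adjusted p = 0.21) and by 1.81 ± 0.53 against control (adjusted p = 0.44). Tnf differed by 0.54 ± 0.12 against control (adjusted p = 0.37). In GEM against control the targets split, with Ccl4 at -0.37 ± 0.06 (adjusted p = 0.38) and Cxcl1 at 0.37 ± 0.08 (adjusted p = 0.69). Of the further receptors, Tlr12 had a change of -0.29 ± 0.13 in that comparison (adjusted p = 0.85) and Cd180 one of -0.12 ± 0.09 (adjusted p = 0.87), and Tlr11 had no single-gene probe set here.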

How the data were processed

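Each tumor was measured on 1 Affymetrix mouse genome array, and the authors deposited log2 values made by RMA, which corrects background, equalizes the distributions of the arrays and summarizes each probe set. The software version is not given in the sources used here. Of 45101 probe sets, 64 array controls were left out. GEO's annotation gave 34945 probe sets 1 gene symbol and 932 several, and 9160 were not listed. Groups of 4 were compared in 5 limma fits of 8 arrays each, as the study's methods describe, and both agents and their interaction in 1 fit of 16 arrays (limma 3.58.1, R 4.3.3), with Benjamini-Hochberg adjustment over 45037 probe sets. SEs are limma's. Exact permutation tests were two-sided, and correlations were tested with 100000 resamples (Python 3.11.15, numpy 2.4.6, scipy 1.17.1). The fit was tested on simulated data.

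The text names all 10 receptors, pathway genes called in any comparison and up to 4 genes of each list with the smallest p. Receptors, lists and the 3 tumors left out in an alternative were chosen with earlier results of these data known. RefSeq tables of build GRCm38.p6 gave current symbols and promoters. Precision is limited by 4 arrays per group. Further alleles of the tumor line are not reported here.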

Additional observations from a re-analysis of the deposited data

Results flagged for a closer look

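Of 40 sets of 4 tumors (10 receptors in 4 groups), 2 held a tumor far from the others by Dixon's test at its critical value for 4, which chance alone passes in about 1 of 20 sets. Tlr3 was 9.47 in GEM/anti-CD40 Ab tumor 1, where the next tumor of the group was at 9.05 and the lowest at 8.98 (gap over range 0.857). Tlr8 was 5.07 in control tumor 2, where the next tumor was at 5.27 and the highest at 5.30 (gap over range 0.870), and that tumor also held skin keratinocyte genes.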

How the results depend on the processing

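In 170 further fits, which gave 1660 receptor values, 2 receptor calls were made. Both came in the main effect of anti-CD40 Ab without GEM/anti-CD40 Ab tumor 3, which called 2 receptors (Tlr2 and Tlr13), so that leaving out 1 tumor at a time gave 0 to 2. Of the 80 receptor changes, 26 changed sign in some setting, none of them with an unadjusted p under 0.2. Without GEM/anti-CD40 Ab tumor 1 the changes in GEM/anti-CD40 Ab against anti-CD40 Ab were 0.22 for Tlr1, 0.20 for Tlr2 and 0.20 for Tlr13, beside 0.52, 0.49 and 0.48 over all tumors. The cause was not tested.

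Of 17 relations with gene lists past the threshold, 4 passed with values centered within groups and 8 without the 2 tumors farthest from the list's median. The replicate numbers did not pair the tumors, since deviations of the 24 same-numbered pairs correlated between -0.27 and 0.27, and with the replicate block 0 receptors were called in each comparison and 54 in place of 175 probe sets in the main effect of anti-CD40 Ab. That count was 485 with array weights, 373 with dim probe sets left out, 61 with a trended and robust variance prior, 18 with GEM tumors 3 and 4 averaged, and 7 to 701 without 1 tumor. In GEM/anti-CD40 Ab against control it was 8, and 44 with all 16 arrays in 1 fit, 13 with the trended prior, 0 with the block, and 0 to 11 without 1 tumor.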
